A study of Bos taurus with 8 samples.

Results

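A set of 10 genes known as markers of embryonic genome activation was followed across 3 kinds of bovine 8-cell embryo: UBTFL1, CCNA1, EIF1AX, HMGN1, SUPT4H1, ELF3, KLF4, KLF5, KLF17 and DPPA4. They were taken by gene symbol, and each of the 10 had 1 row among the 21258 features of the expression files, of which 14158 carried a symbol. Every library was RNA from a pool of 8 Holstein embryos at the 8-cell stage. The 3 IVF libraries came from embryos made by fertilisation in vitro. The 3 SCNT libraries came from somatic cell nuclear transfer embryos, in which the nucleus of an egg is replaced by that of a body cell, with no added KDM4E. The 2 KDM4E-SCNT libraries came from nuclear transfer embryos that overexpressed KDM4E, a demethylase of lysine 9 on histone H3. The submitters' design sets IVF and KDM4E-SCNT each against SCNT. The labels name neither the donor cell, nor the means of overexpression, nor the hour of collection, and no allele. Nothing states that pools within a group had separate origins. P-values thus reflect the variation among these pools alone, and that variation may be technical.

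An early embryo runs first on RNA and protein stored by the oocyte. Its own genome is switched on in waves, in cattle mainly around the 8-cell stage, while stored transcripts are broken down. Genes used as markers of this switch include translation factors, chromatin proteins and the first transcription factors of the embryo. Nuclear transfer adds a further demand, because a differentiated nucleus has to be reset within the same few divisions.

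Values are FPKM, fragments scaled to transcript length and library size. Levels of different genes are set side by side as FPKM only. Amplification before sequencing and reads shared with copies may affect genes differently. No counts were used, so the depth behind a value is unknown. Between 10975 and 13050 features per library reached 1 FPKM, and the 10 most abundant features held 15.8% to 25.7% of all FPKM. Mitochondrial transcripts held 6.08% to 7.10% of FPKM in IVF, 7.54% to 10.6% in SCNT, and 11.04% and 11.47% in KDM4E-SCNT replicates 1 and 2. No row is named KDM4E. LOC524768 on chromosome 15, a KDM4C-like feature whose identity as KDM4E is uncertain, stood at 101.85 and 206.44 FPKM in KDM4E-SCNT, 25.44 to 33.93 in SCNT and 88.34 to 109.12 in IVF. Differences are log2 differences of FPKM + 1, given with their standard error. Folds are taken from these differences, so they are ratios of FPKM + 1 and understate the FPKM ratio of low genes. A feature was called at a limma Benjamini-Hochberg adjusted p under 0.05 over 14839 tested features. All 10 markers were among the tested features. In pooled embryos, fewer cells with a transcript and less transcript per cell cannot be told apart.

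Of the 10 markers, 9 differed between IVF and SCNT embryos at the 8-cell stage. The call rate among all tested features in this comparison was 58.5%, so a high count of calls is not particular to the markers. The markers did not move as 1 group. UBTFL1, CCNA1, EIF1AX, KLF4, KLF5 and DPPA4 were lower in IVF than in SCNT, against 23.6% of all features called lower. HMGN1, SUPT4H1 and ELF3 were higher in IVF, against 34.9% called higher. ELF3 was tested because of its level in IVF and KDM4E-SCNT, so its test is not independent of the minimum level. KLF17 was not called. The median log2 difference was -2.85 over the 10 markers and 0.39 over all tested features. In 9 markers the IVF and SCNT libraries did not overlap, as in 64.4% of all features.

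**Figure D1:**
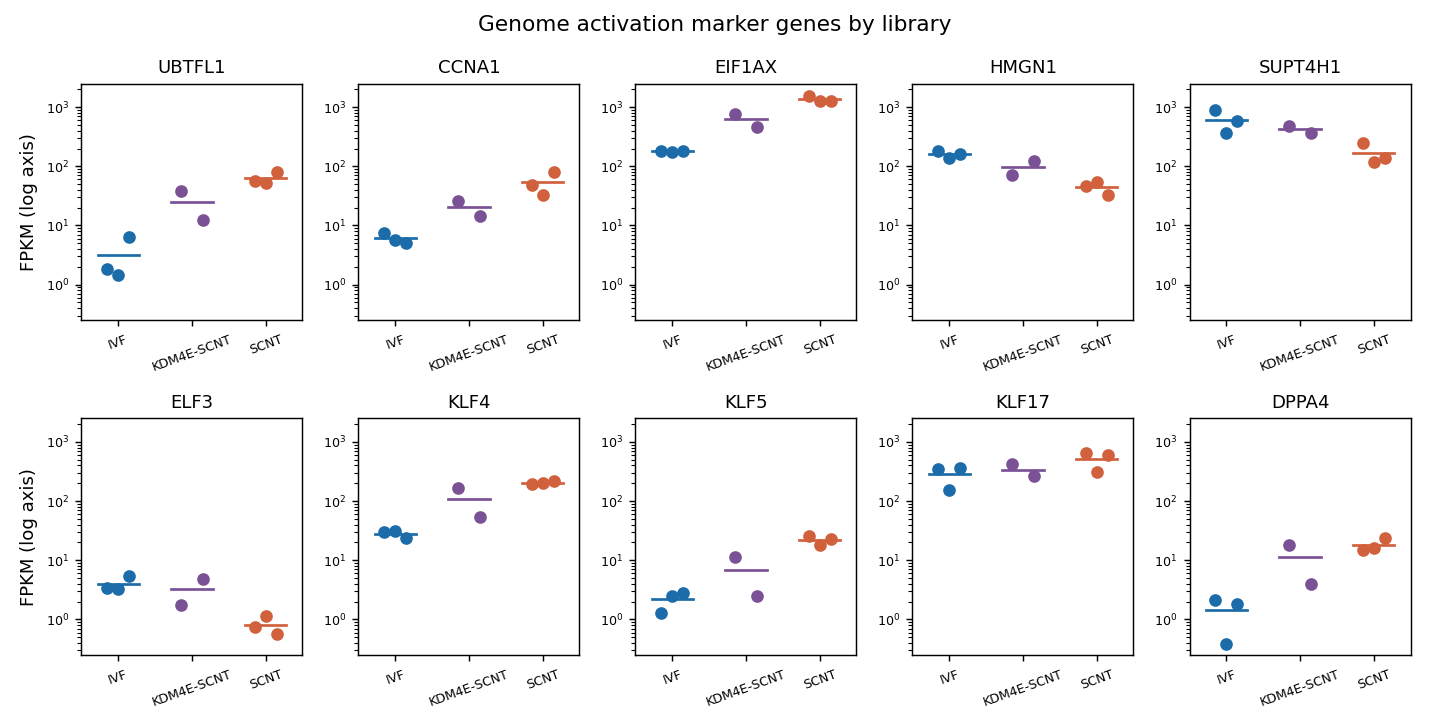
FPKM of the 10 genome activation markers on a log axis, with 1 point per library in replicate order and a line at the group mean (IVF n = 3, KDM4E-SCNT n = 2, SCNT n = 3). IVF and SCNT points overlap in KLF17 alone, and the KDM4E-SCNT mean lies between the other 2 group means in every panel.

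EIF1AX, on chromosome X (130307269 to 130317159, UMD3.1), encodes the initiation factor that helps the small ribosomal subunit find the start codon. It stood at 181.13, 177.09 and 183.15 FPKM in IVF replicates 1 to 3, at 1562.74, 1282.51 and 1288.75 in SCNT replicates 1 to 3, and at 781.5 and 467.68 in KDM4E-SCNT replicates 1 and 2. The 3 groups did not overlap, and the IVF libraries lay closest together. The IVF level was 7.57-fold below that of SCNT (-2.92 ± 0.25, limma adjusted p = 2.53e-06, 95% interval -3.47 to -2.37). KDM4E-SCNT was lower than SCNT (-1.18 ± 0.28, limma adjusted p = 0.00820) and higher than IVF (1.74 ± 0.28, adjusted p = 0.00261). The KDM4E-SCNT minus SCNT difference was no longer called when KDM4E-SCNT replicate 2 was left out (0.0861) or after quantile normalisation (0.10). Processed copies of this gene are known in mammals, and how reads were shared with any copy is not given in the sources used here.

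Other factors of translation initiation were mostly lower in IVF too. Of 27 tested, 17 were lower in IVF than in SCNT, 2 were higher and 8 were not called, with a median of -1.03. The higher count was 1 without IVF replicate 1 or 3, without SCNT replicate 2 or 3 and under median-ratio scaling, 4 with FPKM rescaled to one total per library or with the 2 groups fitted alone, and 7 under quantile normalisation. The factors with the smallest p were EIF3G (-3.90 ± 0.39), EIF3F (-2.80 ± 0.30) and EIF2S2 (-2.54 ± 0.30), subunits of eIF3 and eIF2. EIF1, a partner of EIF1AX on the small subunit and named after its values were seen, was not called (0.63, limma adjusted p = 0.0508). In KDM4E-SCNT, 10 of the 27 were lower than in SCNT and 1 was higher. Over all tested features 11% were called lower and 21.6% higher in this comparison. Between IVF and SCNT the shares were 23.6% lower and 34.9% higher. Each list count of these comparisons, above or below, stands beside these shares. None of the 27 was called lower, and none higher, without KDM4E-SCNT replicate 2, where 1 library stood for the group. Under quantile normalisation 4 were higher than in SCNT.

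CCNA1, on chromosome 12 (25129699 to 25140597, UMD3.1), encodes cyclin A1, the A-type cyclin of germ cells and early embryos. Its row joins 13 transcript models, 12 of them from the authors' own assembly. The IVF libraries held 7.54, 5.76 and 5.06 FPKM, the SCNT libraries 48.05, 33.35 and 81.55, and the KDM4E-SCNT libraries 26.11 and 14.32. Every SCNT library was above both KDM4E-SCNT libraries, and these were above every IVF library. IVF was 7.35-fold lower than SCNT (-2.88 ± 0.37, limma adjusted p = 4.23e-05). KDM4E-SCNT was lower than SCNT by the same test (-1.35 ± 0.42, adjusted p = 0.0267) and higher than IVF (1.53 ± 0.42, adjusted p = 0.0459). Both calls were fragile. The first was lost without SCNT replicate 1 (0.0590), SCNT replicate 3 (0.110) or KDM4E-SCNT replicate 2, and with no minimum FPKM (0.055). The second was lost without IVF replicate 1, 2 or 3 (0.0661, 0.0807 and 0.134) and without KDM4E-SCNT replicate 1. With all libraries kept it was lost with no minimum FPKM (0.104), rescaled totals (0.0606), median-ratio scaling (0.0666) or the 2 groups fitted alone (0.0801).

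Among 19 other mitotic cyclins and regulators, 9 were higher and 5 lower in IVF than in SCNT, with a median of 0.39, equal to that of all features. CCNA2, the cyclin A of dividing somatic cells, was named after its values were seen. It held 181.6 to 227.86 FPKM in IVF, 179.72 to 249.66 in SCNT, and 272.75 and 212.58 in KDM4E-SCNT, and was not called (0.01 ± 0.26, limma adjusted p = 0.974). The kinase CDK1 (-2.56 ± 0.29) and its inhibitor WEE1 (-2.94 ± 0.38) were lower in IVF, and the oocyte kinase WEE2 was higher (3.00 ± 0.35). WEE1 was at 0.81 to 0.99 FPKM in IVF, so it was tested because of its level in the other groups. In KDM4E-SCNT, 6 of the 19 were higher than in SCNT and 1 was lower. Without KDM4E-SCNT replicate 2 these counts were 1 and 0, without KDM4E-SCNT replicate 1 the count lower was 4, and without SCNT replicate 3 the count higher was 3. Under median-ratio scaling 3 were higher and 4 lower, and under quantile normalisation 3 were lower.

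UBTFL1 belongs to a family of HMG-box genes derived from UBTF, the factor that opens ribosomal DNA to RNA polymerase I. The feature with this symbol (ENSBTAG00000046740.1) spans 1158 bp of chromosome 29 (5214444 to 5215601, UMD3.1). In IVF it stood at 1.85, 1.44 and 6.29 FPKM, in SCNT at 55.62, 52.48 and 81.09, and in KDM4E-SCNT at 38.14 and 12.58. The groups did not overlap, and KDM4E-SCNT replicate 2 lay nearer to IVF than replicate 1 did. UBTFL1 had the largest difference of the 10 markers between IVF and SCNT. On the FPKM + 1 scale it was 17.0-fold lower in IVF (-4.09 ± 0.47, limma adjusted p = 1.83e-05, 95% interval -5.11 to -3.07). Only 1.53% of all tested features had a more negative difference. KDM4E-SCNT was higher than IVF (2.64 ± 0.53, limma adjusted p = 0.00859), a call lost without KDM4E-SCNT replicate 1 (0.178). Against SCNT the difference was -1.45 ± 0.53 and was not called (adjusted p = 0.0512). It was called without KDM4E-SCNT replicate 1 (-2.21 ± 0.59, adjusted p = 0.0186), under median-ratio scaling (0.0166), quantile normalisation (0.0475) and the stricter minimum (0.0378), and with only the 2 groups in the fit (0.0410).

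The neighbourhood of UBTFL1 holds other UBTF-like features, which were looked up after the values of UBTFL1 were seen. In 5 loci between 85911 and 504758 bp beyond UBTFL1, 11 features have a description that names UBTF or the protein match of the UBTFL1 feature. Of these, 10 were higher in IVF than in SCNT, 0 were lower and 1 was not called, with a median log2 difference of 2.88. In KDM4E-SCNT, 10 of the 11 were higher than in SCNT, with a median of 2.78. The direction is opposite to that of the feature named UBTFL1. The nearest, ENSBTAG00000046789.1 (5301512 to 5305461), shares a protein match with the UBTFL1 feature in the files' descriptions. It stood at 210.17, 234.48 and 293.75 FPKM in IVF, 16.44, 52.03 and 30.72 in SCNT, and 93.86 and 140.14 in KDM4E-SCNT, with every IVF library above every other library. The descriptions of the UBTFL1 feature also name MAU2, an unrelated cohesin loader, so which gene this feature measures is uncertain. Features of 1 locus overlap or resemble each other and can share reads. The genes flanking UBTFL1, TRIM77 (3.18 ± 0.27, limma adjusted p = 2.50e-06) and TRIM64 (1.12 ± 0.31, 0.00700), were higher in IVF as well.

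**Figure D2:**
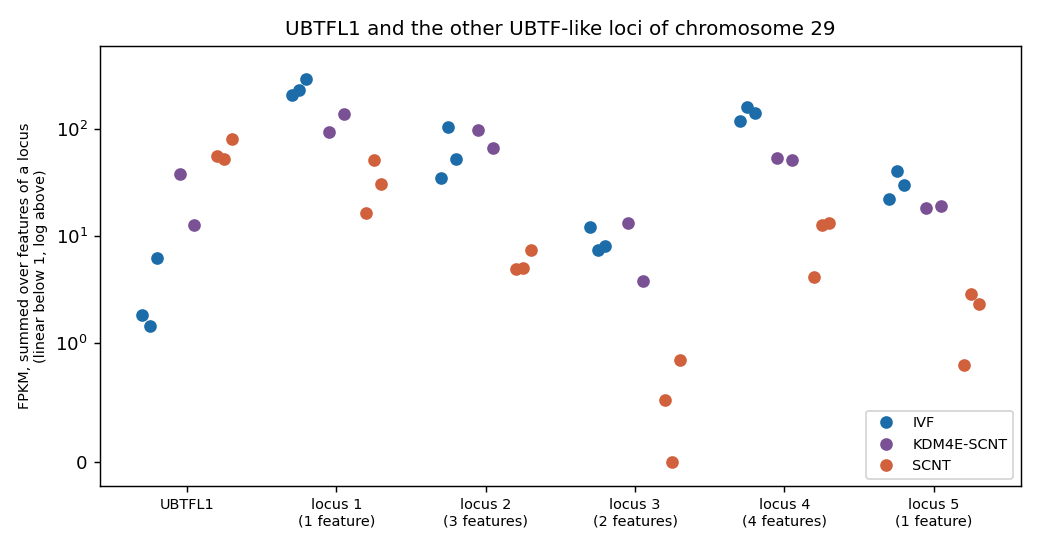
FPKM in each library of the UBTFL1 feature and of 5 further UBTF-like loci on chromosome 29, summed over the features of a locus, on an axis that is linear below 1 and logarithmic above. SCNT libraries are the highest for UBTFL1 and the lowest at each of the other 5 loci.

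UBTF itself, the parent gene, was low in every library. Its level lay between 2.59 and 3.73 FPKM in IVF and between 1.81 and 2.92 in SCNT, and was 3.47 and 2.05 in KDM4E-SCNT. Of the 16 tested genes of the RNA polymerase I machinery, UBTF included, 7 were lower in IVF than in SCNT and 1 was higher, with a median of -0.65. POLR1C, a subunit shared with RNA polymerase III, went from 78.76 to 150.77 FPKM in SCNT down to 3.40 to 3.50 in IVF (-4.71 ± 0.32). TWISTNB (-3.76 ± 0.43) and the nucleolar protein gene NCL (-1.55 ± 0.30) were also lower. In KDM4E-SCNT 2 of the 16, POLR1C and TWISTNB, were lower than in SCNT. Without SCNT replicate 1, SCNT replicate 3 or KDM4E-SCNT replicate 2, and with no minimum level, that count was 1. Under median-ratio scaling it was 4, and none was higher in IVF.

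DPPA4 encodes a chromatin-binding SAP-domain protein that works with DPPA2 on genes of early embryos, and lies on chromosome 1 (54509507 to 54516574, UMD3.1). The IVF libraries held 2.15, 0.38 and 1.80 FPKM, the SCNT libraries 14.73, 16.39 and 23.88, and the KDM4E-SCNT libraries 18.32 and 4.04. KDM4E-SCNT replicate 1 lay within the SCNT range, while replicate 2 lay between SCNT and IVF. On the FPKM + 1 scale IVF was 8.24-fold lower than SCNT (-3.04 ± 0.49, limma adjusted p = 0.000209). KDM4E-SCNT was higher than IVF (2.10 ± 0.55, adjusted p = 0.0380). That call was lost without IVF replicate 1, 2 or 3 (0.0511, 0.0939 and 0.0680) and without KDM4E-SCNT replicate 1, where the difference was 1.13. With all libraries kept it was lost with a pseudocount of 0.1 (0.0510), no minimum FPKM (0.105) or the 2 groups fitted alone (0.116). Median-ratio scaling (0.0516) and quantile normalisation (0.0502) removed it too. Between KDM4E-SCNT and SCNT the difference was -0.94 ± 0.55 (limma adjusted p = 0.201). Without KDM4E-SCNT replicate 1 it was called at -1.91 ± 0.55 (0.0246), and without KDM4E-SCNT replicate 2 it was 0.03 ± 0.55 (0.986).

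DPPA2 lies 18518 bp from DPPA4 and was lower in IVF as well (-2.39 ± 0.53, limma adjusted p = 0.00207). It held 24.18, 3.79 and 16.7 FPKM in IVF, 55.4, 50.66 and 104.68 in SCNT, and 66.11 and 34.74 in KDM4E-SCNT. In both genes IVF replicate 2 was the lowest of the 8 libraries. DPPA3, an oocyte-stored protector of DNA methylation, differed in the other direction (1.79 ± 0.23, adjusted p = 4.47e-05) and was also higher in KDM4E-SCNT than in SCNT (1.48 ± 0.26, adjusted p = 0.00196). These 2 genes were the DPPA relatives tested.

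HMGN1, on chromosome 1 (140906955 to 140913324, UMD3.1), encodes a nucleosome-binding protein that loosens chromatin. It was 1 of the 3 markers that were higher in IVF. Its level was 180.51, 136.62 and 160.58 FPKM in IVF, 45.75, 55.01 and 33.16 in SCNT, and 71.77 and 121.63 in KDM4E-SCNT. The groups did not overlap, with KDM4E-SCNT between the others. IVF was 3.56-fold higher than SCNT (1.83 ± 0.30, limma adjusted p = 0.000239). KDM4E-SCNT was higher than SCNT (1.08 ± 0.34, limma adjusted p = 0.0277) and differed from IVF by -0.75 ± 0.34 (0.237, not called). The rise over SCNT lost its call without SCNT replicate 1 (0.0590), SCNT replicate 3 (0.106) or KDM4E-SCNT replicate 2 (0.242). It was also lost under median-ratio scaling, at 0.61 ± 0.33 (0.163), and with the replicate number as a block (0.0582).

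Its relatives did not all follow. Of 7 other high mobility group genes tested, 4 were higher in IVF than in SCNT, 1 was lower and 2 were not called, with a median of 0.81. HMGN2, its close relative, was higher in IVF (1.51 ± 0.25) and ranged from 3350.46 to 3540.92 FPKM there, against 974.61 to 1515.65 in SCNT. HMGB2 was higher in IVF too (0.93 ± 0.24). HMGN3 was lower in IVF (-3.62 ± 0.31, limma adjusted p = 2.53e-06), from 550.68 to 1093.98 FPKM in SCNT down to between 52.81 and 69.27. In KDM4E-SCNT 2 of the 7 were higher than in SCNT and 1 was lower, against 21.6% and 11% of all tested features. The 2 higher calls became 0 without SCNT replicate 1 or KDM4E-SCNT replicate 2, and 1 without SCNT replicate 2 or 3. Under median-ratio scaling 2 were higher and 2 lower in IVF, and 0 were higher and 2 lower in KDM4E-SCNT. The higher count in KDM4E-SCNT was 1 with no minimum level, with the 2 groups fitted alone and with the replicate block. Copies of HMGN1 and HMGN2 elsewhere in the genome could share reads with these rows.

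SUPT4H1 encodes the small subunit of DSIF, the complex that holds RNA polymerase II at the pause after initiation and travels with it in elongation. It lies on chromosome 19 (9540309 to 9546074, UMD3.1). IVF libraries held 887.5, 359.89 and 587.81 FPKM, SCNT libraries 248, 120.66 and 140.23, and KDM4E-SCNT libraries 476.12 and 363.36. IVF and KDM4E-SCNT overlapped each other, and both lay above SCNT. Replicate 1 was the highest library of each group. IVF was 3.53-fold higher than SCNT (1.82 ± 0.36, limma adjusted p = 0.000864), and KDM4E-SCNT was 2.57-fold higher (1.36 ± 0.40, adjusted p = 0.0212). KDM4E-SCNT minus IVF was -0.46 ± 0.40, with a 95% interval from -1.32 to 0.40. The rise from SCNT to KDM4E-SCNT lost its call without SCNT replicate 2 (0.0656), SCNT replicate 3 (0.0719) or either KDM4E-SCNT library. It was also lost under median-ratio scaling (0.107) and with no minimum FPKM (0.0523).

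Its partner SUPT5H, the large subunit of DSIF, was named after its values were seen. It differed in the other direction, with SCNT libraries at 25.49 to 37.42 FPKM and IVF libraries at 15.89 to 19.74 (-0.85 ± 0.29, limma adjusted p = 0.0236). SUPT4H1 thus had a higher FPKM than SUPT5H in every library. Of 23 other pausing and elongation factors tested, SUPT5H included, 8 were lower in IVF than in SCNT and 3 were higher, with a median of -0.33. Among all tested features 23.6% were lower and 34.9% higher. ELL2, of the super elongation complex, had the smallest p (-3.84 ± 0.31), with SCNT libraries at 99.91 to 122.39 FPKM and IVF libraries at 6.50 to 7.35. CCNT1, the cyclin of P-TEFb, was lower in IVF (-2.0 ± 0.34), while ELL was higher (1.63 ± 0.36). ELL was at 0.17 to 0.98 FPKM in SCNT, so it was tested because of its level in the other groups. Against SCNT, KDM4E-SCNT had 3 of the 23 higher and 2 lower. None in either direction was called without KDM4E-SCNT replicate 2. The higher count was 1 without SCNT replicate 1 or 2, and the lower count was 1 without SCNT replicate 1 and 0 without SCNT replicate 3. Under median-ratio scaling 1 factor was higher in IVF and 1 in KDM4E-SCNT than in SCNT. With rescaled totals 5 were higher in IVF, with no minimum level 1 was higher in KDM4E-SCNT, and with the replicate block 1 was lower there.

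KLF4, KLF5 and KLF17 are Kruppel-like factors, zinc finger proteins that bind GC-rich and CACCC elements. KLF4, a reprogramming factor on chromosome 8 (98843684 to 98847740, UMD3.1), held 30.08, 30.71 and 24.11 FPKM in IVF, 190.97, 204.01 and 218.23 in SCNT, and 166.81 and 53.74 in KDM4E-SCNT. No group overlapped another, and the KDM4E-SCNT libraries differed from each other more than the libraries of either other group did. IVF was 7.04-fold lower than SCNT (-2.82 ± 0.36, limma adjusted p = 4.03e-05). KDM4E-SCNT was higher than IVF (1.72 ± 0.40, limma adjusted p = 0.0221). That call was lost without IVF replicate 1 (0.0517), IVF replicate 3 (0.0795) or KDM4E-SCNT replicate 1. It was also lost with no minimum FPKM (0.0667) and with the 2 groups fitted alone (0.0837). Its difference from SCNT was -1.10 ± 0.40 (0.0533), and -1.91 without KDM4E-SCNT replicate 1. With all libraries kept it was called under median-ratio scaling (0.0159) and with the stricter minimum (0.0381).

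KLF5, needed for both lineages of the blastocyst in the mouse, lies on chromosome 12 (48104081 to 48123367, UMD3.1). It held 1.29, 2.45 and 2.77 FPKM in IVF, 25.43, 18.02 and 22.64 in SCNT, and 11.35 and 2.46 in KDM4E-SCNT. KDM4E-SCNT replicate 2 lay inside the IVF range and replicate 1 between the 2 other groups. On the FPKM + 1 scale IVF was 7.36-fold lower than SCNT (-2.88 ± 0.44, limma adjusted p = 0.000145). KLF5 had the largest KDM4E-SCNT minus SCNT difference of the 10 markers in either direction (-1.80 ± 0.49, adjusted p = 0.0153). It lost that call without SCNT replicate 1 (0.0524) or KDM4E-SCNT replicate 2 (0.223, difference -0.89). KDM4E-SCNT minus IVF was 1.08 ± 0.49 (limma adjusted p = 0.250) and was called without KDM4E-SCNT replicate 2 (1.99 ± 0.46, 0.0232).

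KLF17, an early activated factor in human embryos, lies on chromosome 3 (102526631 to 102541169, UMD3.1). It was the one marker with overlapping IVF and SCNT libraries, at 355.38, 155.4 and 358.66 FPKM in IVF, 641.68, 313.39 and 600.99 in SCNT, and 415.49 and 266.68 in KDM4E-SCNT. Replicate 2 was the lowest library of every group. IVF minus SCNT was -0.87 ± 0.38 (limma adjusted p = 0.0636), with a 95% interval from -1.68 to -0.05. It was called without SCNT replicate 2 (-1.20 ± 0.39, 0.0220), under median-ratio scaling (-1.31 ± 0.38, 0.0106) and with the replicate number as a block (0.00997). The differences of KDM4E-SCNT were -0.57 ± 0.42 from SCNT and 0.30 ± 0.42 from IVF, neither called. The second was -0.10 ± 0.38 without IVF replicate 2 and -0.02 ± 0.52 without KDM4E-SCNT replicate 1.

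The other Kruppel-like factors did not move in 1 direction. Of 8 in the files, 5 were tested, and 3 of these were higher in IVF than in SCNT and 1 was lower, with a median of 1.80. The gene that was lower, KLF3, had the largest difference of the family: 1.33 to 2.99 FPKM in IVF, 75.94 to 95.71 in SCNT, and 24.14 and 9.96 in KDM4E-SCNT (IVF minus SCNT -4.86 ± 0.36, limma adjusted p = 1.00e-06). KLF7 (2.34 ± 0.38), KLF12 (1.80 ± 0.33) and KLF11 (1.81 ± 0.34) were higher in IVF. KLF7 was at 0.45, 0.78 and 0.48 FPKM in SCNT, so it was tested because of its level in the other groups. In KDM4E-SCNT 2 of the 5 were higher than in SCNT and 1 was lower. The higher count was 1 without any single SCNT library or without KDM4E-SCNT replicate 2, and the lower count was 2 without KDM4E-SCNT replicate 1. The higher count was also 1 with no minimum level, with the replicate block and under median-ratio or quantile scaling. For IVF the lower count was 2 under median-ratio scaling and with the 2 groups fitted alone. Of 4 tested Sp factors, which bind the same kind of element, SP1 was lower (-1.20 ± 0.28) and SP4 higher (1.53 ± 0.36) in IVF, and a second Sp factor was called lower without IVF replicate 2. SP4 was not tested with a minimum of 5 FPKM in at least 2 libraries.

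ELF3, an ETS factor of epithelia, was the least abundant marker in SCNT. It lies on chromosome 16 (70826736 to 70830809, UMD3.1). It held 3.34, 3.23 and 5.46 FPKM in IVF, 0.73, 1.14 and 0.57 in SCNT, and 1.75 and 4.78 in KDM4E-SCNT. A single SCNT library reached 1 FPKM, so ELF3 was tested because of its level in the other 2 groups. Its test against SCNT is thus not independent of the minimum level. ELF3 was not tested with a minimum of 5 FPKM in at least 2 libraries, where 8 markers were called for IVF minus SCNT. On the FPKM + 1 scale IVF was 2.73-fold higher than SCNT (1.45 ± 0.38, limma adjusted p = 0.00597). The group means were 4.01 and 0.813 FPKM, and with a pseudocount of 0.1 the difference was 2.18 ± 0.57. KDM4E-SCNT minus SCNT was 1.15 ± 0.43 (0.0557), although both libraries lay above SCNT, and was called without KDM4E-SCNT replicate 1 (1.68 ± 0.48, 0.0235). KDM4E-SCNT and IVF overlapped (-0.30 ± 0.43, limma adjusted p = 0.753), and without KDM4E-SCNT replicate 1 the difference was 0.23 ± 0.48.

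Among 12 other ETS factors tested, 7 were higher in IVF than in SCNT and 3 were lower, with a median of 1.05. Of all tested features 34.9% were higher and 23.6% lower in this comparison. ETV6, a repressor, was higher (3.74 ± 0.34), and ELF2 (-3.45 ± 0.33) and GABPA (-2.92 ± 0.40) were lower. In KDM4E-SCNT 4 were higher than in SCNT and 1 was lower, and the higher count was 2 without KDM4E-SCNT replicate 2. The lower count there was 2 under median-ratio or quantile scaling, and with a minimum of 5 FPKM 4 were higher in IVF. Of 9 tested regulators and keratins of the trophectoderm, the outer layer of the blastocyst, 4 were higher in IVF than in SCNT and 3 were lower, with a median of -0.30. TEAD4 (-2.97 ± 0.36), TFAP2C (-2.80 ± 0.38) and EOMES (-0.88 ± 0.34) were lower in IVF. KRT8 (1.59 ± 0.36) and the regulators GATA2 (1.71 ± 0.35), GATA3 (1.93 ± 0.42) and ELF5 (1.94 ± 0.39) were higher. In SCNT KRT8 was at 0 to 0.48 FPKM and ELF5 at 0 to 0.11, and in IVF TEAD4 was at 0 to 0.21. KRT8, ELF5 and TEAD4 were thus tested because of their levels in the other groups. With a minimum of 5 FPKM 2 genes of the list were higher in IVF. In KDM4E-SCNT 3 of the 9 were higher than in SCNT and 2 were lower. That higher count was 1 without SCNT replicate 1 or 3, with no minimum level, with the replicate block and under median-ratio or quantile scaling. The lower count was 1 without SCNT replicate 1, with a pseudocount of 0.1 and under quantile scaling. Both counts also fell without KDM4E-SCNT replicate 2.

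**Figure D3:**
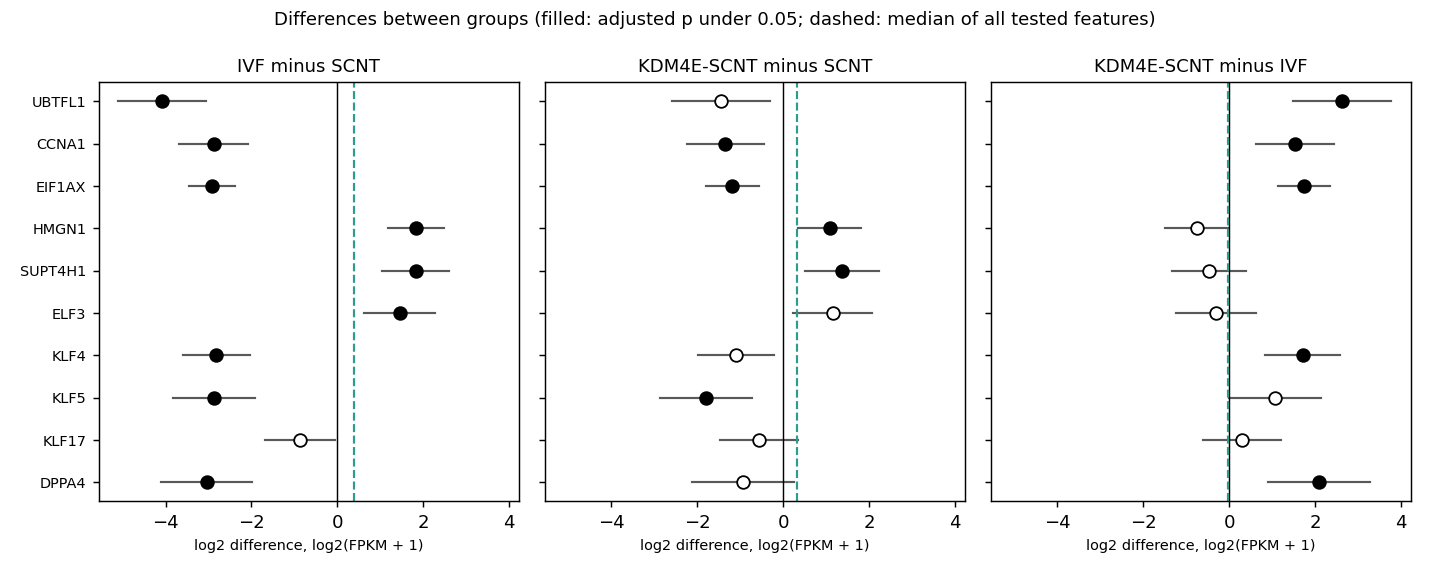
Log2 difference of each marker in the 3 comparisons, on the log2(FPKM + 1) scale, with 95% intervals from limma, filled points for adjusted p under 0.05 and a dashed line at the median of all tested features. Of 10 points, 9 are filled for IVF minus SCNT, 5 for KDM4E-SCNT minus SCNT and 5 for KDM4E-SCNT minus IVF.

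Between KDM4E-SCNT and SCNT, 5 of the 10 markers were called, HMGN1 and SUPT4H1 higher and CCNA1, EIF1AX and KLF5 lower. Among all tested features 32.6% were called, 21.6% higher and 11% lower. The markers' median difference was -1.02, against 0.33 over all features. In 8 markers the libraries of the groups did not overlap, against 59.5% of all features. The count of 5 leaned on single libraries. It was 2 without SCNT replicate 1 or 3, 8 without KDM4E-SCNT replicate 1, and 0 without KDM4E-SCNT replicate 2. When a KDM4E-SCNT library is left out, the other is assumed to vary like the other groups. This comparison and IVF minus SCNT share the 3 SCNT libraries, so their values are set side by side above and their likeness is no independent evidence.

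Between KDM4E-SCNT and IVF, 5 markers were called, UBTFL1, CCNA1, EIF1AX, KLF4 and DPPA4, all higher in KDM4E-SCNT. Only 6.52% of all tested features were called, 5.90% higher and 0.62% lower. The median difference was 1.30 for the markers and -0.03 for all features, and 6 markers had no overlap, against 33.9%. EIF1AX kept its call under each alternative tried. The count was 2 without IVF replicate 1, 3 without IVF replicate 2, 2 without IVF replicate 3 and 1 without KDM4E-SCNT replicate 1. It was also 2 when the 2 groups were fitted alone.

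The KDM4E-SCNT libraries were placed between the other groups, with the SCNT mean at 0% and the IVF mean at 100% on the log2(FPKM + 1) scale. Over the 9 markers that differed between IVF and SCNT, replicate 1 had a median of 30.8% and replicate 2 of 64.0%. UBTFL1 lay at 16.7% and 54.1%, EIF1AX at 27.8% and 53.1%, and CCNA1 at 32.5% and 61.1%. Replicate 2 was thus nearer to IVF than replicate 1 in each of these. KLF4 lay at 10.3% and 67.7% and KLF5 at 30.8% and 94.5%. DPPA4 lay at -0.92% in replicate 1, on the far side of the SCNT mean, and at 62.8% in replicate 2. HMGN1 lay at 38.3% and 79.4%, and ELF3 at 42.3% and 116%. SUPT4H1 was the exception, at 85.4% in replicate 1 and 64.0% in replicate 2. All features called lower in IVF had medians of 41.4% and 63.9%, and all called higher had medians of 62.5% and 88.2%. No test was made of these shares, which reuse the libraries of both comparisons.

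**Figure D4:**
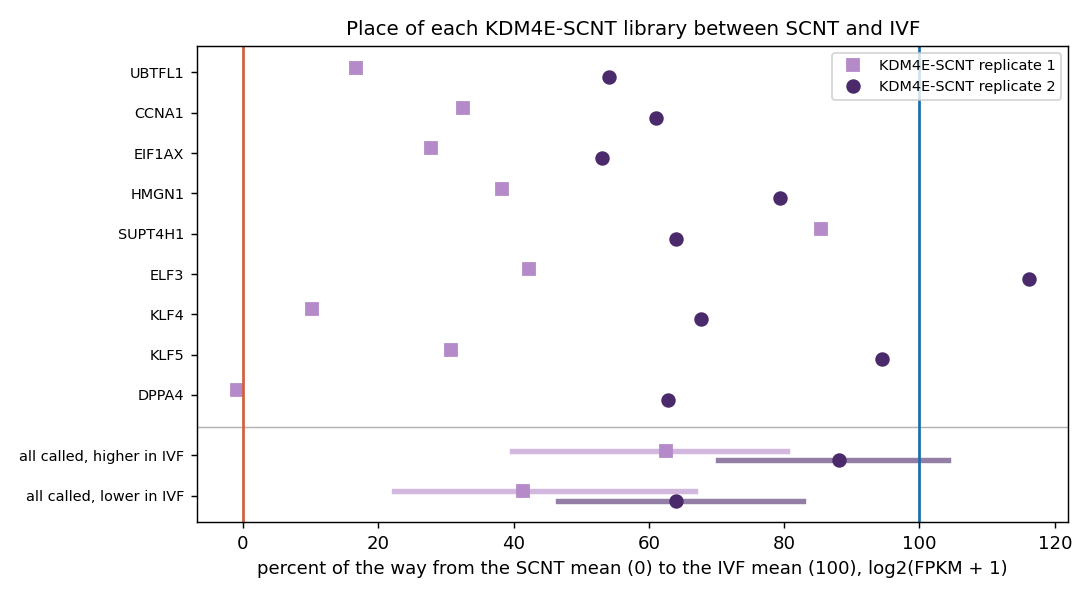
Place of KDM4E-SCNT replicate 1 (squares) and replicate 2 (circles) between the SCNT mean (0, red line) and the IVF mean (100, blue line) for the 9 called markers, on the log2(FPKM + 1) scale. The bottom rows give the median and quartiles (bars) of all features called higher or lower in IVF, and replicate 2 lies to the right of replicate 1 for every marker but SUPT4H1.

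Other genes known to be switched on around genome activation in mammals also moved in both directions. They were listed with earlier results of these data known, so they are no independent evidence on the markers. DPPA2 and TFAP2C are also counted in the DPPA and trophectoderm lists. Of 26 such genes looked for, 14 were in the files and tested, and 10 were lower in IVF than in SCNT, 2 were higher and 2 were not called, with a median of -1.80. ZFP42, a pluripotency marker, held 0.83, 1.54 and 12.78 FPKM in IVF, 433.22, 289.01 and 526.34 in SCNT, and 196.41 and 72.62 in KDM4E-SCNT (IVF minus SCNT -6.66 ± 0.64, limma adjusted p = 8.09e-06). NANOG (-4.18 ± 0.40) and PRDM14 (-4.81 ± 0.54) were lower in IVF too, with no overlap between groups. The 2 that were higher, HESX1 (2.57 ± 0.37) and SOX15 (1.48 ± 0.45), were named after their values were seen, and that count was 1 when IVF replicate 3 or when SCNT replicate 2 or 3 was left out. In KDM4E-SCNT 5 of the 14 were lower than in SCNT and 2 were higher. The lower count was 3 without SCNT replicate 3 and 2 without KDM4E-SCNT replicate 2, and the higher count was 1 without either KDM4E-SCNT library, SCNT replicate 2 or SCNT replicate 3. Under median-ratio scaling 8 were lower and 1 higher, and the higher count was 1 under quantile normalisation, with no minimum level and with the 2 groups fitted alone.

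Stored maternal transcripts also differed between the groups, all in 1 direction. All 20 oocyte genes tested were higher in IVF than in SCNT, with a median of 3.05, among them BTG4, SLBP2 and BMP15. Their summed level was 26559 to 32114 FPKM in IVF, 3966 to 8594 in SCNT, and 19073 and 23992 in KDM4E-SCNT. All 20 were also higher in KDM4E-SCNT than in SCNT, and 11 were without KDM4E-SCNT replicate 2. FIGLA was at 0 in SCNT replicate 1. HMGN1, SUPT4H1 and ELF3 followed the direction of this list, and the 6 markers lower in IVF ran against it. The part of stored RNA in any marker's difference was not tested.

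Markers of cells that could be carried along summed to less than these maternal genes. That says nothing of their level beside the genome activation markers. The 19 fibroblast genes in the files summed to between 36.3 and 60.64 FPKM in IVF, between 113.52 and 183.96 in SCNT, and 103.23 and 495.62 in KDM4E-SCNT replicates 1 and 2. Of 13 tested, 5 were lower in IVF than in SCNT and 1, FN1 (1.95 ± 0.56), was higher. SPARC, LGALS1 and TIMP1 had the highest means over all 8 libraries. TIMP1 held 135.01 FPKM in KDM4E-SCNT replicate 2 and 0 to 14.16 in the others. In IVF the mean of FN1 was 11.1 FPKM, against 0.683 for SPARC and 0.57 for TIMP1. SPARC was at 0.52 to 0.94 FPKM in IVF, so it was tested because of its level in the other groups. The lower count was 3 without IVF replicate 3, and the higher count was 2 without IVF replicate 2. With no minimum level 3 were lower, and with rescaled totals or the 2 groups fitted alone 2 were higher. In KDM4E-SCNT 2 of the 13, VIM and S100A4, were higher than in SCNT and 0 were lower. That higher count was 1 without SCNT replicate 1 or with a pseudocount of 0.1, and 4 without SCNT replicate 2. Against IVF 5 of the 13 were higher in KDM4E-SCNT, where 5.90% of all tested features were called higher. That count was 2 without IVF replicate 3 or with no minimum level. Both counts also moved without KDM4E-SCNT replicate 2. TIMP1 was at 0 in IVF replicates 1 and 3, and TAGLN in all IVF libraries and SCNT replicate 3. The 9 cumulus genes summed to 102.1 to 163.49 FPKM in IVF, 16.89 to 25.52 in SCNT, and 46.07 and 99.74 in KDM4E-SCNT. Of 4 tested, HAS2, STAR and PTGS2 were higher in IVF. PTGS2 was at 0.34 to 0.56 FPKM in SCNT, so it was tested because of its level in the other groups. TNFAIP6 was lower with all libraries and not called when any IVF or SCNT library was left out. In this list 0 genes were called lower with a pseudocount of 0.1, with another or no minimum level, with rescaled totals or with the replicate block. The part of such cells in the markers' differences was not tested.

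**Figure D5:**
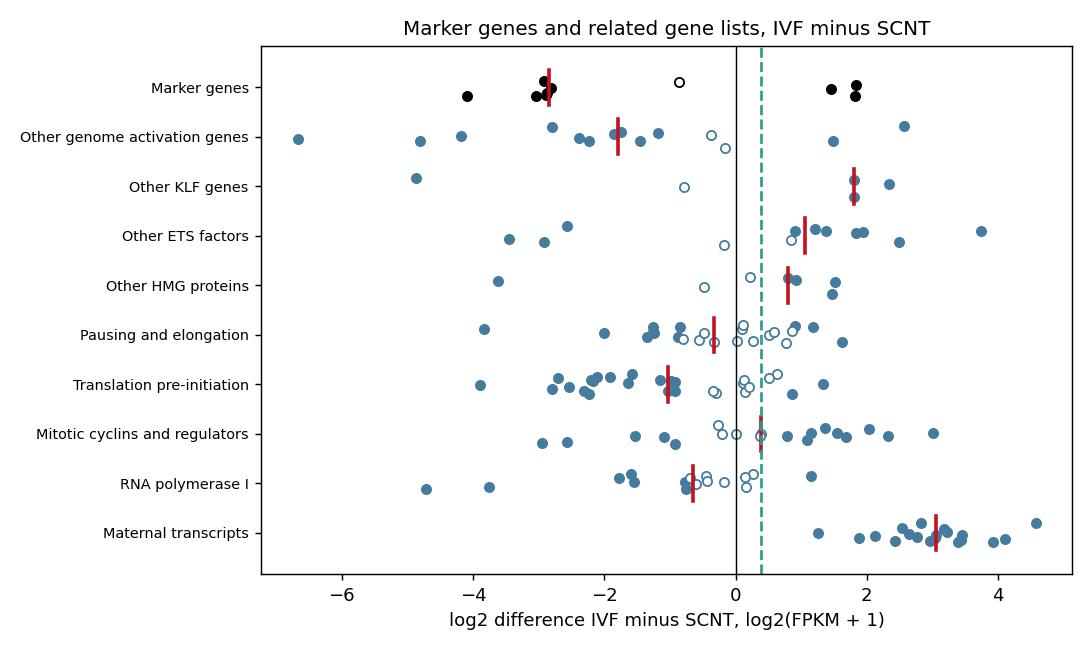
Log2 difference IVF minus SCNT, on the log2(FPKM + 1) scale, of the 10 markers and of related gene lists, with 1 point per gene, filled where limma adjusted p was under 0.05, a red bar at each list's median and a dashed line at the median of all tested features (0.39). The medians run from -2.85 for the markers to 3.05 for maternal transcripts.

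The order of the markers by level differed between groups. In IVF, SUPT4H1 was first with a mean of 612 ± 265 FPKM (SD, n = 3), and its range lay just above that of KLF17 (290 ± 116). EIF1AX (180 ± 3.09) and HMGN1 (159 ± 22) came next, and the ranges of KLF17, EIF1AX and HMGN1 each overlapped the next. KLF4 stood alone at 28.3 ± 3.64. CCNA1, ELF3, UBTFL1, KLF5 and DPPA4 followed with means of 6.12 down to 1.44 FPKM, each overlapping its neighbour in the order. In SCNT, EIF1AX was first with 1378 ± 160 FPKM (SD, n = 3), above 99.4% of all features and apart from KLF17 (519 ± 179). KLF4 (204 ± 13.6) and SUPT4H1 (170 ± 68.6) overlapped, as did UBTFL1 (63.1 ± 15.7) with CCNA1 (54.3 ± 24.7) and CCNA1 with HMGN1. KLF5 and DPPA4 overlapped at 22.03 ± 3.74 and 18.3 ± 4.87, and ELF3 came last at 0.813 ± 0.294. In KDM4E-SCNT, EIF1AX, SUPT4H1 and KLF17 headed the order with means of 625, 420 and 341 FPKM, and the range of each overlapped that of the next.

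Within the set, profiles over the 8 libraries were compared as root mean square differences of log2(FPKM + 1) after centring, a description with no test. The closest pair was EIF1AX and KLF4 (0.28), and the next was ELF3 and HMGN1 (0.30). KLF17 was nearest to CCNA1 (0.97). Among 3500 features with a symbol and a mean log2(FPKM + 1) of at least 4, the nearest to EIF1AX was RPL27A (0.14), with RPS12 and SIRT1 next. SETD2, MSH6 and PPIL1 were nearest to UBTFL1, KRR1, ITGB1BP1 and RPP30 to CCNA1, and YBX2, PDK3 and RAB3IP to HMGN1. CDK2AP2, BRK1 and PGRMC1 were nearest to SUPT4H1, and CFDP1 and MRPS27 were among the nearest to ELF3. USMG5, VBP1 and LSM8 were nearest to KLF4, BLOC1S2, SNX5 and RNGTT to KLF5, TFG, CHTOP and ACIN1 to KLF17, and RNF138, KRR1 and GABPA to DPPA4. The distance to the single nearest gene ran from 0.14 for EIF1AX to 0.29 for UBTFL1.

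Genes beside the markers did not share 1 direction, though most of those called were higher in IVF than in SCNT. Of all features called in this comparison, 59.7% were higher in IVF. RAD23B beside KLF4 was higher in IVF (0.97 ± 0.34, limma adjusted p = 0.0254), while KLF4 was lower. KLF12, the symbol next to KLF5 at 708585 bp, was higher in IVF than in SCNT, as was PIBF1 on the other side (1.34 ± 0.32, limma adjusted p = 0.00295), while KLF5 was lower. RPS6KA3, 6975 bp from EIF1AX, was lower in IVF (-1.29 ± 0.48, 0.0341), and SH3KBP1 on its far side was higher (1.61 ± 0.31, 0.000846). SMYD2, 13030 bp from ELF3, was higher in IVF (2.04 ± 0.39, 0.000725), and RNF43, 2194 bp from SUPT4H1, was higher as well (1.17 ± 0.35, 0.0117). BRWD1 beside HMGN1 was not called (0.44 ± 0.37, limma adjusted p = 0.313), and LOC534913 on its other side was higher in IVF (2.44 ± 0.37, 0.000125). The genes on either side of CCNA1, RFXAP (-0.32 ± 0.45) and SPG20 (0.69 ± 0.36), were not called. ACTL7B beside KLF4 (0.78 ± 0.39) and DMAP1 beside KLF17 (-0.47 ± 0.31) were not called either.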

How the data were processed

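RNA from 8 pools of 8 bovine 8-cell embryos was reverse transcribed, tailed, amplified and fragmented before library preparation, per the labels' protocols. Tools given in the submitters' processing notes, with no role or order, are RSEM 1.2.12, Bowtie2 2.2.5, StringTie 1.0.4, HISAT 0.1.6 and bcl2fastq 2.16, on build UMD3.1. Whether strand was used is not given in the sources used here. The deposited values are FPKM per gene, 1 file per library, per the file headers. No counts were used, so limma was run in place of a count test, depth is unknown, and a 0 may be a failed estimate.

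FPKM were joined by feature and tested as log2(FPKM + 1) with limma 3.58.1 in R 4.3.3, with trend and robust moderation, in 1 model of 3 group means over all 8 libraries. The pseudocount of 1 understates changes of low genes. Features at 1 FPKM or more in at least 2 libraries were tested: 14839, with 6419 set aside. A feature under 1 FPKM throughout 1 group met this minimum through the other groups, so its test is not independent of the minimum. P-values were two-sided and Benjamini-Hochberg adjusted over all tested features, and called under 0.05. The scripts were tested on simulated data. Groups came from the labels.

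The markers and gene lists were chosen with earlier results of these data known. The named genes are the 10 markers, up to 3 members per list with the smallest p in either comparison with SCNT (for maternal, fibroblast and cumulus genes the 3 with the highest mean) and the 3 nearest profiles of each marker, of which 1 is not reported here. Partners, neighbours and others were named with their values in view. The lists are other genome activation genes, Kruppel-like and Sp factors, high mobility group genes, ETS factors, elongation factors, initiation factors, cyclins, RNA polymerase I, DPPA, trophectoderm, maternal, fibroblast and cumulus genes. Alternatives changed the pseudocount, the minimum, the scaling, the libraries fitted and a replicate block, and left out each library. No sequences or reference genome were used.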

Additional observations from a re-analysis of the deposited data

How the results depend on the processing

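No marker called in a comparison changed direction there under any alternative run. Differences that were not called changed sign in 4 values: for KDM4E-SCNT minus IVF, KLF17 was -0.1006 without IVF replicate 2 and -0.0213 without KDM4E-SCNT replicate 1, and ELF3 was 0.2344 without KDM4E-SCNT replicate 1, and for KDM4E-SCNT minus SCNT, DPPA4 was 0.0278 without KDM4E-SCNT replicate 2. With 1 library left out these differences ran from -0.1006 to 0.6165 for KLF17, from -0.8372 to 0.2344 for ELF3 and from -1.9108 to 0.0278 for DPPA4. For IVF minus SCNT, 136 of 139 single-marker values kept their side of the threshold, and the 3 others were KLF17 gaining a call. For KDM4E-SCNT minus SCNT, 99 of 129 did, 10 gained a call, 19 lost one and 1 changed sign, and for KDM4E-SCNT minus IVF 102 of 129 did, 1 gained, 23 lost and 3 changed sign. The count of markers called was 3 between KDM4E-SCNT and SCNT with no minimum level, and 0 to 8 when 1 library was left out. Between KDM4E-SCNT and IVF it was 2 with no minimum, 3 under median-ratio scaling, 2 with only the 2 groups fitted, and 1 to 6 with 1 library left out. Of all features, 541 were called between KDM4E-SCNT and IVF with only the 2 groups fitted (967 otherwise), and 298 to 1301 with 1 library left out. Between KDM4E-SCNT and SCNT 4844 were called, and 1553 to 4499 with 1 library left out. The causes were not tested. Fewer libraries enter each such fit, and where 1 KDM4E-SCNT library remained it was assumed to vary like the other groups.

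Median-ratio scaling moved the median of all features from 0.39 to 0.10 for IVF minus SCNT and from 0.33 to 0.02 for KDM4E-SCNT minus SCNT. The share of calls that were higher went from 59.7% to 48.9% and from 66.2% to 43.2%, and under quantile normalisation it was 52.8% and 49.8%. With the replicate number as a block, 8656, 4252 and 957 features were called in the 3 comparisons, KLF17 gained its call and HMGN1 lost the one against SCNT (adjusted p = 0.0582). Whether libraries with the same number share more than that number is not given in the sources used here. Their deviations from the group means correlated at 0.06, 0.09 and 0.03 between IVF and SCNT. Over all 3 groups, pairs with the same number ran from 0.0065 to 0.123, and other pairs from -0.1335 to 0.1335. A shared origin was not tested, and the block is not read as a paired analysis.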
